A study of Mus musculus with 20 samples.

Results

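Nucleotide synthesis and one-carbon metabolism were followed through 35 enzyme genes in 20 single blood-forming cells of C57BL/6J mouse bone marrow. The genes were chosen by name for their function, and all 35 matched 1 of the 38561 Ensembl genes counted in the files. They comprised 10 deoxynucleotide genes, 8 genes of folate and serine metabolism, 11 purine genes and 6 pyrimidine genes. All cells were sorted as negative for lineage markers and positive for cKit. Of these, 9 were also positive for CD150 and negative for CD48 (CD150+CD48- cells), the surface phenotype used to enrich blood stem cells, and 11 were negative for CD150 (CD150- cells), for which the labels name no CD48 gate. Each cell was lysed with ERCC spike-in RNA and made into a library with Quartz-Seq, a method that amplifies the polyadenylated RNA of a single cell by PCR. No animal, sex, age or treatment is named in the labels, so a group counts as a single sample, the groups were not tested against each other, and differences have no replicate error.

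A dividing cell must copy its DNA, and for this it makes purine and pyrimidine nucleotides from small precursors, reduces part of them to deoxynucleotides, and supplies single carbon units carried by folate for purines and thymidylate. Serine, made from a glycolytic intermediate, is the main donor of these carbon units. Several of the enzymes are known to be made mostly in S phase, and adult stem cells of the marrow are known to be mostly quiescent, whereas early red cell precursors divide fast.

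Levels are CPM, a gene's reads scaled by the cell's total of gene reads, after every cell was thinned to 660007 gene reads, the lowest total. A single read is then worth 1.52 CPM. Log2 folds are CD150+CD48- over CD150-, from summed reads with 1 CPM added. Intervals are at 95% and cover counting error only, and reads are PCR copies, not molecules. Fewer cells with a transcript and less transcript per cell cannot be told apart in a group's summed level, so the cells are given as well.

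The CD150+CD48- cells held 660007 to 3722713 gene reads each, the CD150- cells 996440 to 5776125. At equal depth the CD150+CD48- cells had reads of 4770 to 8659 genes (median 5314) and the CD150- cells of 5435 to 8894 (median 8314). Unaligned reads made up a median of 29.8% and 8.55% of all reads, and the ratio of gene to ERCC reads had medians of 68.1 and 141. Markers of stem cells took 0.328% to 1.14% of gene reads in CD150+CD48- cells, with all 18 listed markers read. In CD150- cells 16 of the 18 were read, with Hoxb5 and Cdkn1c at 0. The CD150- cells were mixed. In C6, C9, C10, C12, D4, D5 and D8 a list of erythroid markers took 0.997% to 2.41% of gene reads and stem cell markers 0.0130% to 0.0524%, whereas in D3, D9, D11 and D12 erythroid markers took 0.0173% to 0.254% and stem cell markers 0.573% to 0.934%. The former 7 are called erythroid-rich here, for an erythroid share over 0.5%. Erythroid markers took 0.0338% to 0.307% in CD150+CD48- cells, with 12 of 18 read, and with Rhag, Slc4a1 and Alas2 among those at 0. Megakaryocyte markers were also higher in CD150+CD48- cells, by a log2 fold of 1 or more for 10 of 12 genes past the filter (median 3.03, all genes: 21.8%). Their share was 0.00697% to 0.432% there, highest in A8 (0.432%) and B4 (0.312%), with 12 of 14 markers read and Gp1ba and Mpig6b at 0. In CD150- cells it was 0% to 0.0956%, with 9 of 14 read and Itgb3, Gp1bb, Rab27b, Ppbp and Mpig6b at 0. How far cell type, detection and alignment shaped the differences below was not tested.

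The enzymes as a set took a larger share of gene reads in the median CD150- cell. The 35 genes took a median of 0.802% of gene reads in CD150- cells (range 0.213 to 1.03) and 0.358% in CD150+CD48- cells (range 0.129 to 0.905). The ranges overlapped over most of their span. Among CD150- cells, the 7 erythroid-rich ones had shares of 0.783% (D8) to 1.03% (C6), and D9, D12, D11 and D3 had 0.213%, 0.291%, 0.321% and 0.328%. Among CD150+CD48- cells, A3 and B12 had the lowest shares, 0.129% and 0.160%, followed by A11, B11 and A10 at 0.351%, 0.357% and 0.358%. A8 had 0.477%, B3 0.650%, B9 0.904% and B4 0.905%, so that B4 and B9 lay within the range of the 7 erythroid-rich cells. At equal depth 14 to 32 of the 35 genes had a read in a CD150+CD48- cell (median 20) and 18 to 34 in a CD150- cell (median 31). The mean difference in the share of cells with a read (CD150+CD48- minus CD150-) was -17.0 percentage points for the 35 genes and -10.6 for all genes past the gene filter.

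**Figure D1:**
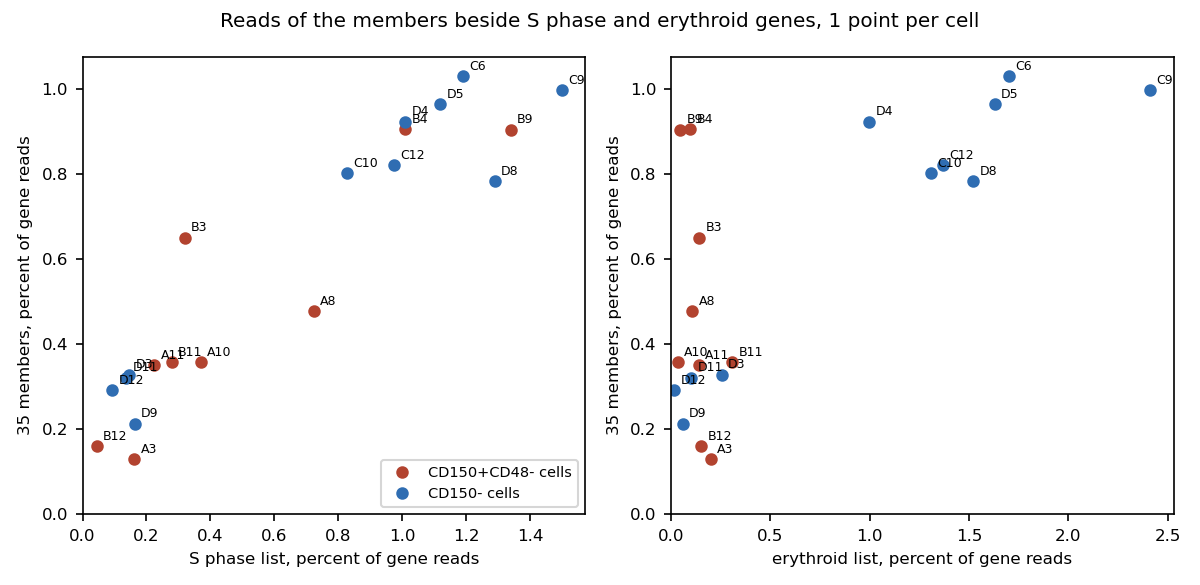
Share of gene reads taken by the 35 enzyme genes in each cell (y axis, percent) against the share of a list of S phase genes (left) or erythroid markers (right, both in percent). Each point is 1 cell, red for CD150+CD48- and blue for CD150- cells. B4 and B9, at 0.905% and 0.904%, stand beside the CD150- cells in the left panel and apart from them in the right one.

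The share of the enzymes went with that of a list of 26 S phase genes that holds none of them. The S phase share was 0.829% to 1.5% for the 7 erythroid-rich CD150- cells, and 0.0935% to 0.163% for D3, D9, D11 and D12. It was 1.34% in B9, 1.01% in B4 and 0.723% in A8, and 0.0441% (B12) to 0.370% (A10) in the other 6 CD150+CD48- cells. B3 was an exception, with 0.650% for the enzymes and 0.320% for the S phase list. Genes of G2/M phase did not follow in the same way. Their list took 0.360% to 0.794% in the 7 erythroid-rich cells, but 0.152% in B4, 0.0395% in B9 and 0.000455% in A8.

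Gene by gene, the contrast between the groups was near the background of the whole data set. All 35 genes passed the filter of at least 10 thinned reads and a read in at least 3 cells, as did 11350 genes in all. A log2 fold of -1 or less was found for 10 of the 35 genes (28.6%), against 27.3% of all genes past the filter, and one of 1 or more for 8 genes (22.9%), against 21.8%. The median log2 fold was -0.41, against -0.09 for all genes. Median log2 folds were -0.48 for the deoxynucleotide, 0.50 for the folate and serine (-0.03 to 0.67 with 1 cell left out), -0.76 for the purine and -0.35 for the pyrimidine genes. The 8 higher genes were 5 without B4 or without B9 (all genes: 21.9% in each case). The 10 lower genes were 14 without B9 (all genes: 30.2%). When the levels of single cells were averaged on the log scale, 20 genes were lower and 2 higher (all genes: 36.4% and 14.2%), with a median log2 fold of -1.73 against -0.48 for all genes. Scaling by ERCC reads moved the median of all genes to -0.92 and left 24 of the 35 genes lower and 0 higher (all genes: 47.9% and 15.2%).

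These counts turned on which CD150- cells were used, a comparison added after seeing the data. With the 7 erythroid-rich cells left out, 22 of the 35 genes (62.9%) were higher and 4 (11.4%) lower in CD150+CD48- cells, against 33.4% and 22.8% of all genes. The median log2 fold was 1.48 against 0.20. Only D3, D9, D11 and D12 then stood for CD150- cells, with 12.7 to 43.8 gene reads per ERCC read. Their enzyme shares, 0.213% to 0.328%, lay within the CD150+CD48- range. A3, B12, A11, B11 and A10 had 0.129% to 0.358%, and A8, B3, B9 and B4 had 0.477% to 0.905%. With D3, D9, D11 and D12 left out instead, 15 genes (42.9%) were lower and 6 (17.1%) higher, against 25.9% and 31.4% of all genes. The letter that opens a cell's name comes from its title, and its meaning is not stated there. CD150+CD48- cells bear A or B, and CD150- cells bear C or D. Between the A and C cells 24 genes were lower and 2 higher (all genes: 36.5% and 27.4%), and between the B and D cells 6 were lower and 12 higher (all genes: 30.7% and 23.5%). All 4 C cells were erythroid-rich, so the letter and the kind of cell cannot be told apart in that group.

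**Figure D2:**
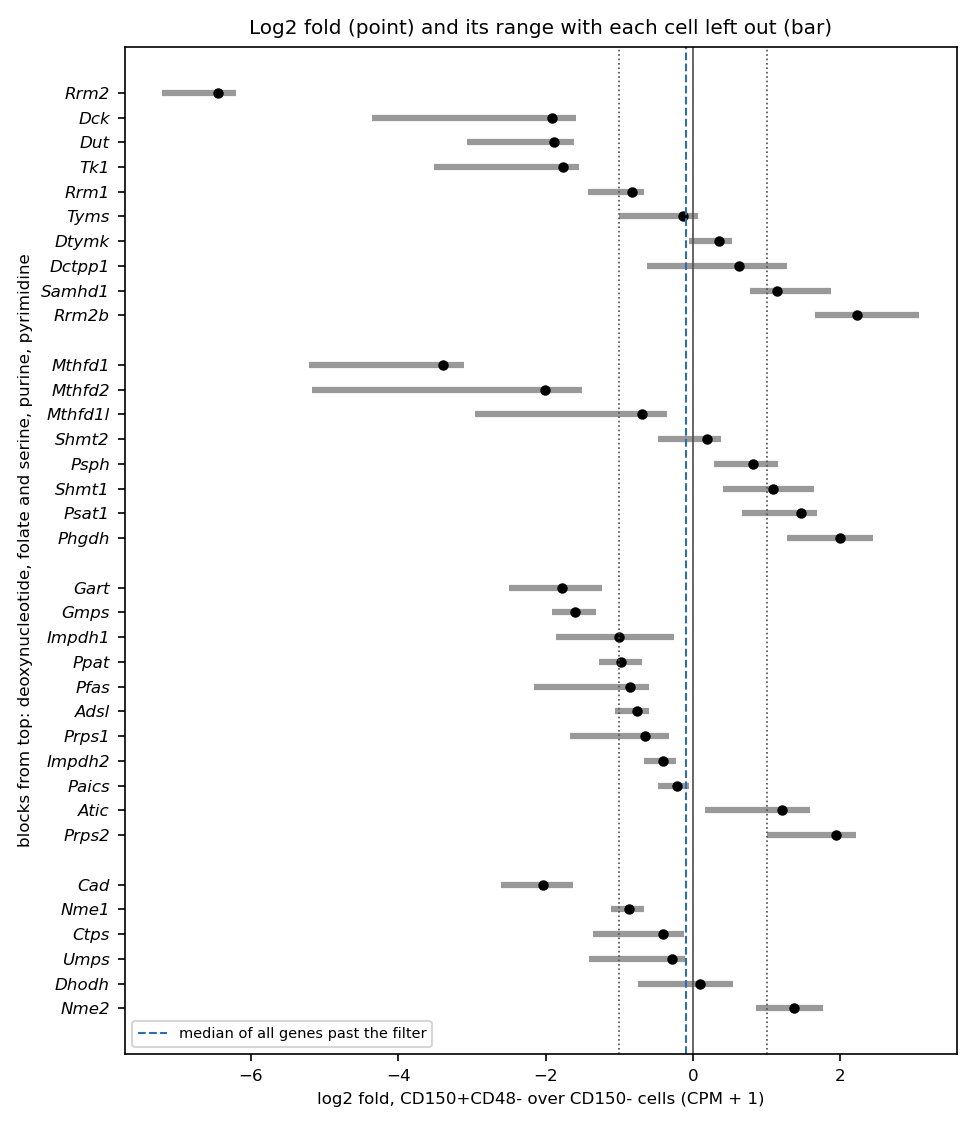
Log2 fold of each of the 35 genes, CD150+CD48- over CD150- cells (points), with the range obtained when each cell was left out in turn (grey bars). Dotted lines mark log2 folds of -1 and 1, and the dashed line marks the median of all genes at -0.09. Rrm2 stands alone at the far left, at -6.45, and the bars of Dck, Mthfd1, Mthfd2 and Mthfd1l are the widest.

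Ribonucleotide reductase turns ribonucleotides into deoxynucleotides. It joins the large subunit encoded by Rrm1 to a small subunit, which is encoded by Rrm2 in dividing cells or by the p53-induced Rrm2b. Rrm2 had the log2 fold of largest size among all 35 genes, -6.45, whereas Rrm1 was at -0.83 and Rrm2b at 2.23. The CD150+CD48- cells with high Rrm1 had no read of Rrm2, while Phgdh and Psat1 were both high in B3 and B4, so the stretches upstream of these 4 genes are shown. They are the unannotated bases within 250 bases before the RefSeq start (GRCm38.p6, 5′ to 3′ along the gene), with matches to the CCAAT box, a common promoter element, in capitals on either strand (CCAAT or ATTGG).
Rrm1, chr7:102441445-102441694, plus strand: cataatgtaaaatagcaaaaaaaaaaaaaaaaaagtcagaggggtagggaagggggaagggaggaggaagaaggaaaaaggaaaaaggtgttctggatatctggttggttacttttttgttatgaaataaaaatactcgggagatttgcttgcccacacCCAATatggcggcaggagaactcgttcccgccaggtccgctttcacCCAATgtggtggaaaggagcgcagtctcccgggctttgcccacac
Rrm2, chr12:24708004-24708240, plus strand: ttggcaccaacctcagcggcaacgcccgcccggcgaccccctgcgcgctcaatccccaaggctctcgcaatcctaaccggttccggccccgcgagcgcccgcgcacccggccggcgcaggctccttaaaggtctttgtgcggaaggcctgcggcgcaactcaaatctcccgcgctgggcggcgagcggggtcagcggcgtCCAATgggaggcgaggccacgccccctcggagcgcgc
Phgdh, chr3:98339991-98340219, minus strand: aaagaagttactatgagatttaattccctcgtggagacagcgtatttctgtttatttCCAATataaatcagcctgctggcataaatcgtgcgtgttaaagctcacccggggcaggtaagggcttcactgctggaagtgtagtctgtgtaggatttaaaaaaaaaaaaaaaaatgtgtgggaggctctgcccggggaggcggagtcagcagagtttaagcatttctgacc
Psat1, chr19:15925060-15925309, minus strand: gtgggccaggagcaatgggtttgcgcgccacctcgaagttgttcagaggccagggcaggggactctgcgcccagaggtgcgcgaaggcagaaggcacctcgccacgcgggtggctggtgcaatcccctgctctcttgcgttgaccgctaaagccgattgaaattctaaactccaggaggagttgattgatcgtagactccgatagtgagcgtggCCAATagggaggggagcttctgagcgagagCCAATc
Both reductase genes held a CCAAT box close to the start, beginning 45 and 91 bases before that of Rrm1 and 50 bases before that of Rrm2. The Psat1 window, the first of its RefSeq windows, lies within the annotated span of the gene. Psat1 held matches beginning 36 and 6 bases before its start, and Phgdh 193 and 23 bases before, the latter outside the stretch shown. Of the 32 enzyme genes with a window in the table, 14 (43.8%) held CCAAT or ATTGG in the 250 bases, against 33.8% of 32817 promoter windows of the same length. CACGTG, the E-box bound by MYC, was found in 6 of 32 (18.8%, against 6.02%), namely Tyms, Dtymk, Paics, Atic, Impdh2 and Nme1. The E2F motif TTTCCCGC was found in 1 (Ppat, 3.12% against 0.893%), TTTGGCGC in none (against 0.417%), and the ATF4-type motif TGATGCAA in none (against 0.792%). Every motif was searched on both strands, and none of the motifs contains another. A match is a description of the letters only.

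Rrm2 (ENSMUSG00000020649, chromosome 12, 24708241 to 24714146, GRCm38) had 0 CPM in the lowest, 255 in the median and 452 in the highest CD150- cell. Among CD150+CD48- cells it had 7.58 CPM in A8 and 1.52 in B11, and no read in the other 7, also when all reads were used. Each of the 7 erythroid-rich cells, at 65.2 to 452 CPM, lay above every CD150+CD48- cell, while D12 had 9.09 and D3, D9 and D11 had none. In sum Rrm2 was 172-fold lower in CD150+CD48- cells (1.01 against 174 CPM, 95% CI 79.0 to 471), with log2 folds of -7.20 without A8 and -6.45 with all cells. With the 7 erythroid-rich cells left out its log2 fold was -0.70. Rrm1 (chromosome 7, 102441695 to 102469771) behaved otherwise. It had 698 CPM in B4, 521 in B9 and 453 in A10, and 0 to 6.06 CPM in the other 6 CD150+CD48- cells. The 7 erythroid-rich cells had 345 to 658 CPM, so B9 and A10 lay within their range and B4 above it. The 3 cells with high Rrm1 therefore had no read of Rrm2, whereas each of the 7 erythroid-rich cells had both. Of these 3, A10 and B4 were poor libraries, with 80.2% and 46.3% of reads unaligned and 5126 and 4770 genes read at equal depth. B9 had 8.17% unaligned and 8360 genes. Among the erythroid-rich cells D8 had 5474 genes and the rest 7325 to 8894. How far detection shaped the missing Rrm2 reads was not tested. Over all cells Rrm1 was 1.78-fold lower (95% CI 1.66 to 1.92, log2 fold -0.83), at -1.43 without B4. Stretches of 50 bases shared with transcripts of other genes made up 6.48% of Rrm2 and 4.59% of Rrm1.

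Rrm2b (chromosome 15, 37923952 to 37961318) was read in 3 of 9 CD150+CD48- cells, at 142 CPM in B12, 141 in B11 and 59.1 in A8, with a median of 0. In CD150- cells it was read in a larger share, 5 of 11, with a median of 0 and a highest value of 43.9 CPM, in C12. It was 5.21-fold higher in CD150+CD48- cells (38.0 against 7.30 CPM, 95% CI 3.85 to 7.17, log2 fold 2.23), at 1.65 without B12 and 3.07 without C12. Its log2 fold was -0.25 between the A and C cells. B11 and A8 were the only CD150+CD48- cells with a read of Rrm2. Per kilobase of annotated exon, Rrm2 was above Rrm2b in 8 of 11 CD150- cells and below it in D9 and D11, and in no CD150+CD48- cell was it above Rrm2b. In 6 of the 9 CD150+CD48- cells neither small subunit had a read, B4, B9 and A10 among them.

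Samhd1 (chromosome 2, 157097533 to 157135265) breaks deoxynucleotides down. It had 0, 298 and 1102 CPM in the lowest, median and highest CD150+CD48- cell and 0, 100 and 908 CPM in CD150- cells. The highest cells, A11 at 1102, A10 at 982 and D12 at 908 CPM, had S phase shares of 0.225%, 0.370% and 0.0935%, and the cells at 0, B4 and D8, had 1.01% and 1.29%. The remaining cells did not keep this order, since D9 had 18.2 CPM at an S phase share of 0.163%, and C9, with the highest share, had 277 CPM. Samhd1 was 2.21-fold higher in CD150+CD48- cells (95% CI 2.06 to 2.36, log2 fold 1.14), at 1.88 without D12 and 0.77 without A11. With the 7 erythroid-rich cells left out it was 0.29, and between the B and D cells 0.10.

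**Figure D3:**
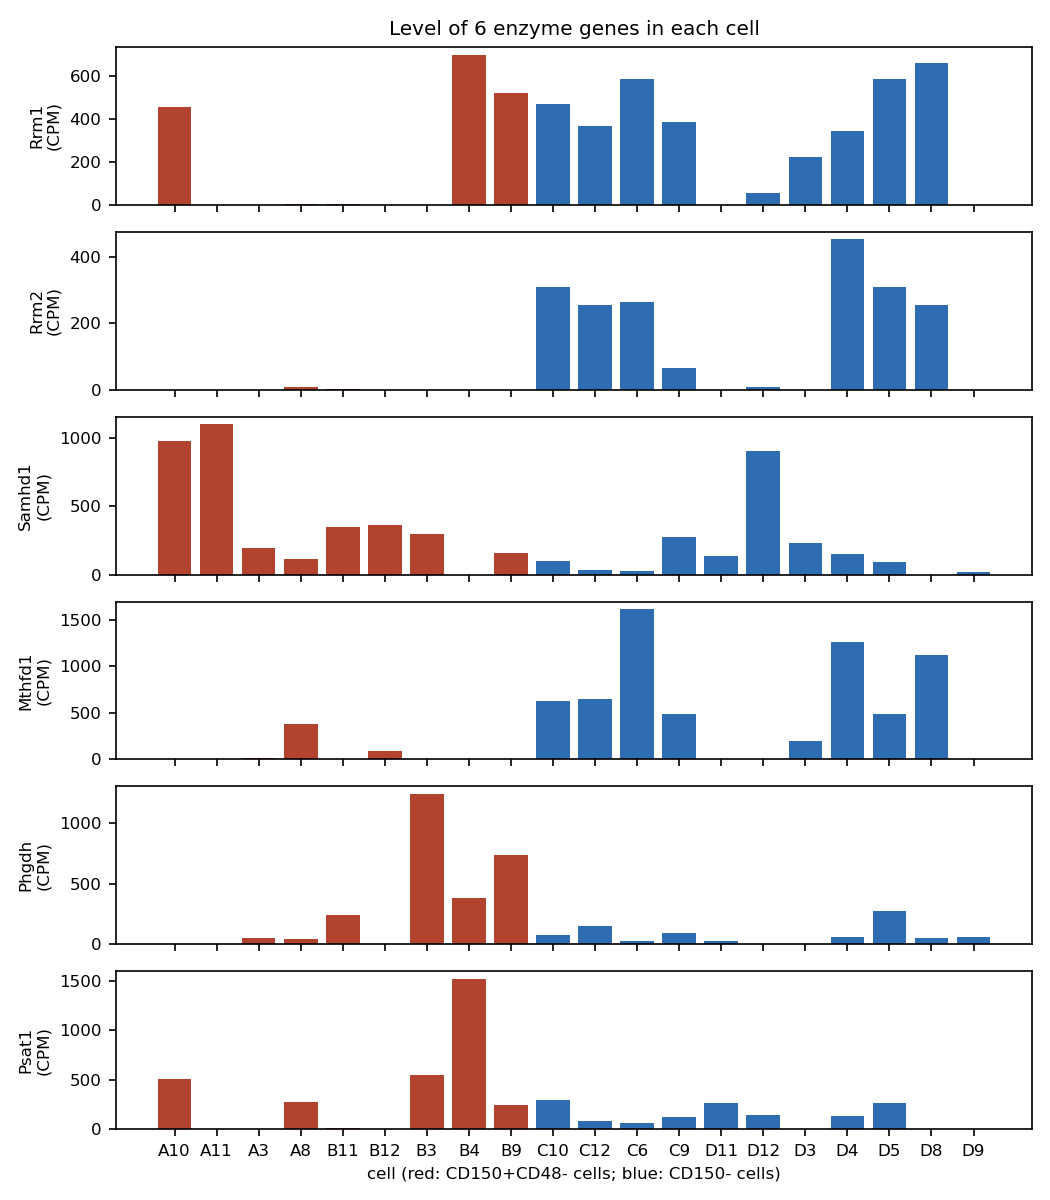
Level (y axis, CPM) of 6 enzyme genes in each of the 20 cells, red bars for CD150+CD48- and blue bars for CD150- cells. Rrm1 reaches 698 CPM in B4 and 521 in B9, where Rrm2 has no read, and Phgdh is highest in B3, B9 and B4, where Mthfd1 has 0 to 6.06 CPM. Each panel has its own scale.

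Among the thymidylate and deoxyuridine enzymes, Tyms and Tk1 had most of their CD150+CD48- reads in few cells. Tyms, thymidylate synthase, had 1069.7 CPM in B4, 505 in B9 and 415 in B3, at most 42.4 in the other 6, and 208 to 562 in the 7 erythroid-rich cells. Its summed level was nearly the same in both groups, 229 and 250 CPM (log2 fold -0.13), but -1.01 without B4 and 0.07 without D5. Tk1, the S phase thymidine kinase, had 626 CPM in B9, 208 in A8 and 9.09 in B4, and no read in the other 6. It was 3.44-fold lower (95% CI 3.14 to 3.78, log2 fold -1.77), at -3.52 without B9, and at 1.48 with the erythroid-rich cells left out. Dut, which removes dUTP, had 1333 CPM in B9 but 1.52 in B4, and 585 to 2485 in the 7 erythroid-rich cells. It was 3.71-fold lower (95% CI 3.51 to 3.94, log2 fold -1.89), at -3.07 without B9, and at 1.19 with those cells left out. Dtymk, thymidylate kinase, was read in all 9 CD150+CD48- cells, at 7.58 to 962 CPM, and differed by 1.29-fold (95% CI 1.20 to 1.37), with log2 folds of 0.36 with all cells and -0.05 without B3. Thus B4 had high Tyms, Dtymk and Rrm1 with hardly any Dut, Tk1 or Rrm2, while B9 had all of these except Rrm2.

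Salvage of deoxycytidine and cleaning of the pool differed less evenly. Dck (chromosome 5, 88764996 to 88783281), deoxycytidine kinase, had 0, 12.1 and 465 CPM in the lowest, median and highest CD150+CD48- cell and 0, 179 and 695 in CD150- cells. B4 alone held 84.8% of its reads in CD150+CD48- cells, and the next cell had 27.3 CPM. In CD150- cells it was high in C9, D9 and D3, at 695, 547 and 392 CPM, so it did not follow the erythroid-rich cells. It was 3.79-fold lower (95% CI 3.39 to 4.26, log2 fold -1.91), at -4.35 without B4, at -3.19 with no thinning and at -0.89 between the B and D cells. Dctpp1, which hydrolyses dCTP and its modified forms, had 24.4 CPM over 4 of 9 and 15.4 CPM over 6 of 11 cells, and a log2 fold of 0.63 that was -0.62 without A10 and 1.27 without C6.

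**Figure D4:**
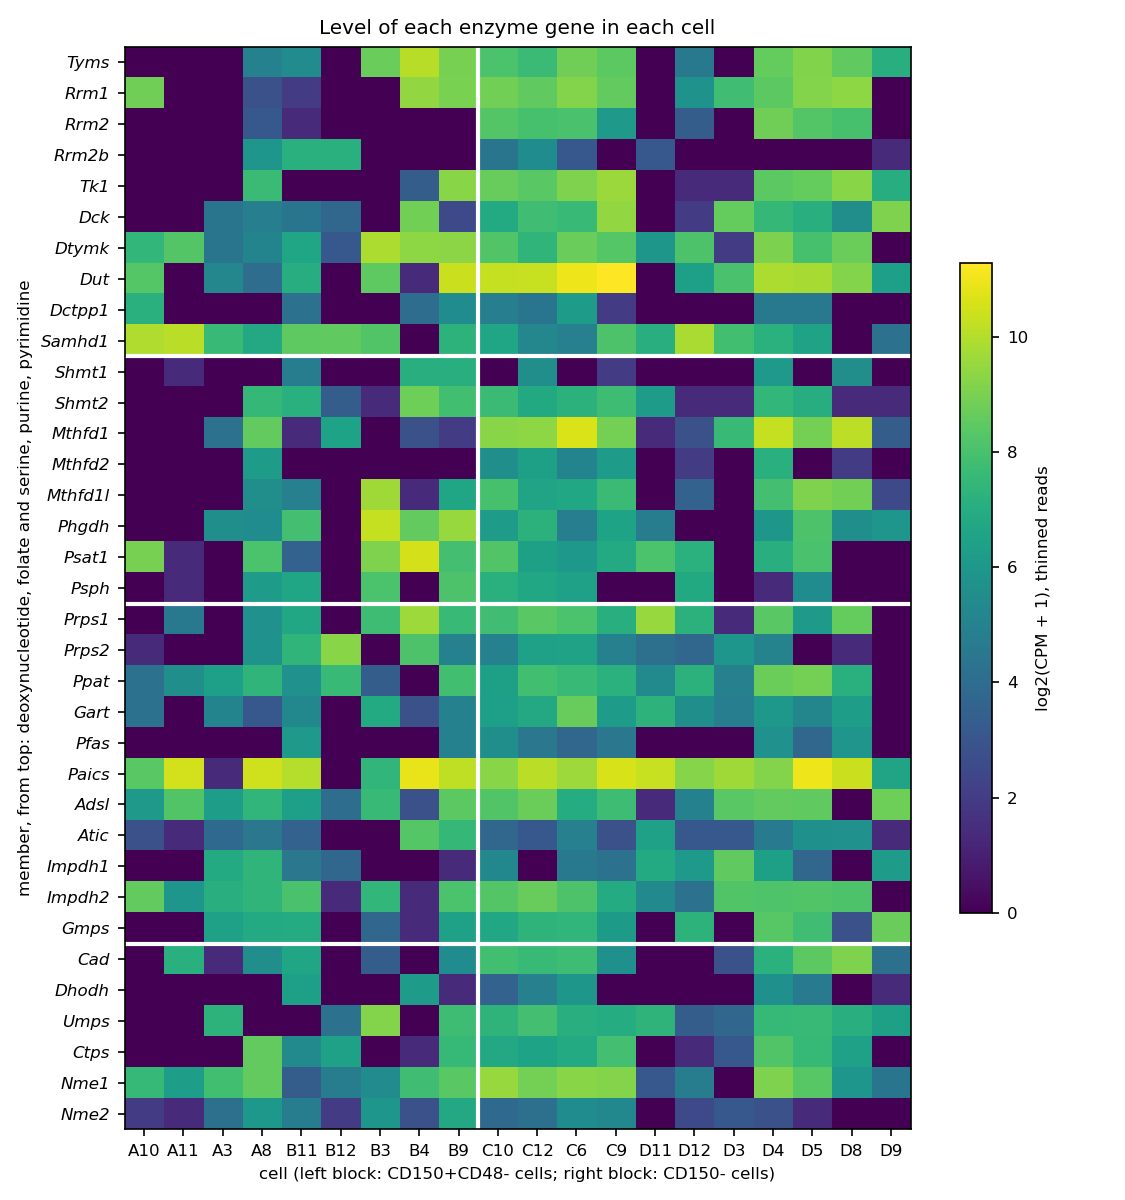
Level of each of the 35 enzyme genes (rows, colour as log2 of CPM plus 1) in each of the 20 cells (columns, CD150+CD48- cells left and CD150- cells right of the white line). Horizontal white lines part the deoxynucleotide, folate and serine, purine and pyrimidine genes. The C cells are filled in nearly every row, with 32 to 34 of 35 genes read, and A11, A10 and B12 are the emptiest columns, with 14, 15 and 15.

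Among the folate and serine genes, Mthfd1 and Mthfd2 were lower in CD150+CD48- cells, and Phgdh, Psat1 and Shmt1 higher, past a log2 fold of 1 in size. These 2 lower and 3 higher of 8 genes stand beside 27.3% and 21.8% of all genes. Together the 8 genes took a median of 0.0544% of gene reads in CD150+CD48- cells (range 0.000455 to 0.287) and 0.133% in CD150- cells (range 0.00758 to 0.209). B3, B4 and B9 had 0.287%, 0.249% and 0.172%, and B3 and B4 lay above every CD150- cell, of which C6 was the highest at 0.209%. A11, A3 and B12 had the lowest shares, 0.000455%, 0.00667% and 0.0100%.

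Mthfd1 (chromosome 12, 76255298 to 76319803), the trifunctional cytosolic enzyme that interconverts the folate forms needed for purines and thymidylate, had 1.52, 489 and 1618 CPM in the lowest, median and highest CD150- cell. Its values were 0, 3.03 and 377 CPM in CD150+CD48- cells. Each of the 7 erythroid-rich cells had at least 488 CPM, above every CD150+CD48- cell, of which A8 came next at 377 and B12 at 90.9. D3 had 197 CPM, and D9, D11 and D12 had 1.52 to 9.09. Mthfd1 was 10.7-fold lower in CD150+CD48- cells (55.2 against 589 CPM, 95% CI 9.52 to 12.0, log2 fold -3.39), at -5.21 without A8. With the 7 erythroid-rich cells left out it was 0.05. B4 and B9, with S phase shares as high as those cells, had 6.06 and 3.03 CPM of Mthfd1.

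In mitochondria, Mthfd2 (chromosome 6, 83305691 to 83325908), which oxidizes methylene-folate, was read in 7 of 11 CD150- cells, with a median of 3.03 and a highest value of 141 CPM in D4. In CD150+CD48- cells all its reads were in A8, at 71.2 CPM, and the median was 0. It was 4.42-fold lower (95% CI 3.23 to 6.17, log2 fold -2.01) and at -5.17 without A8, but at 2.34 with the erythroid-rich cells left out. Mthfd1l, which releases formate from mitochondria, had 82.2% of its CD150+CD48- reads in B3, at 803 CPM, and its log2 fold was -0.69 with all cells and -2.96 without B3. Shmt2, the mitochondrial serine hydroxymethyltransferase, was read in 6 of 9 and 11 of 11 cells, with levels of 112 and 97.8 CPM and a log2 fold of 0.19 that was -0.47 without B4. Shmt1, its cytosolic counterpart, was 2.19-fold higher (95% CI 1.72 to 2.80, log2 fold 1.08) with reads in 4 of 9 and 4 of 11 cells, at 132 CPM in both B4 and B9. Its log2 fold was 0.41 without B4, -3.29 between the A and C cells and -0.47 when cells were scaled by their ERCC reads. Per kilobase of exon Shmt2 was above Shmt1 in 6 of 9 and 10 of 11 cells.

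Phgdh (chromosome 3, 98313170 to 98339990), which makes the first committed step from glycolysis to serine, had 0, 48.5 and 1245 CPM in the lowest, median and highest CD150+CD48- cell, against 0, 60.6 and 277 in CD150- cells. B3 at 1245, B9 at 736 and B4 at 383 CPM lay above every CD150- cell, and the other 6 had 0 to 239. The median cell was lower in CD150+CD48- cells, but the summed level was 4.03-fold higher (299.7 against 74.4 CPM, 95% CI 3.66 to 4.44, log2 fold 2.00), at 1.28 without B3, but at -1.85 between the A and C cells and at 0.18 with ERCC scaling. Of its 50-base stretches 63.1% occur in transcripts of other genes, mostly the pseudogene Gm7901, so it could be undercounted. Psat1 (chromosome 19, 15904678 to 15947337), the aminotransferase of the next step, had 0, 242 and 1519.7 CPM in the lowest, median and highest CD150+CD48- cell and 0, 118 and 298 in CD150- cells. B4 at 1519.7, B3 at 550.0 and A10 at 503 CPM lay above every CD150- cell, and A11, A3, B11 and B12 had at most 10.6. It was 2.77-fold higher (95% CI 2.56 to 3.00, log2 fold 1.46), at 0.66 without B4, 0.62 with no thinning and 0.01 with ERCC scaling. Psph, the phosphatase of the last step, was highest in B9 and B3, at 282 and 274 CPM, and had no read in B4. Its log2 fold was 0.82 and 1.16 without C10, and 10.4% of its exon bases overlap Cct6a on the other strand, from which its reads could not be told apart without strand. The 3 serine enzymes together had 2069.7 CPM in B3, 1903 in B4 and 1261 in B9, against at most 580.3 CPM in a CD150- cell (D5) and at most 503 in the other CD150+CD48- cells.

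**Figure D5:**
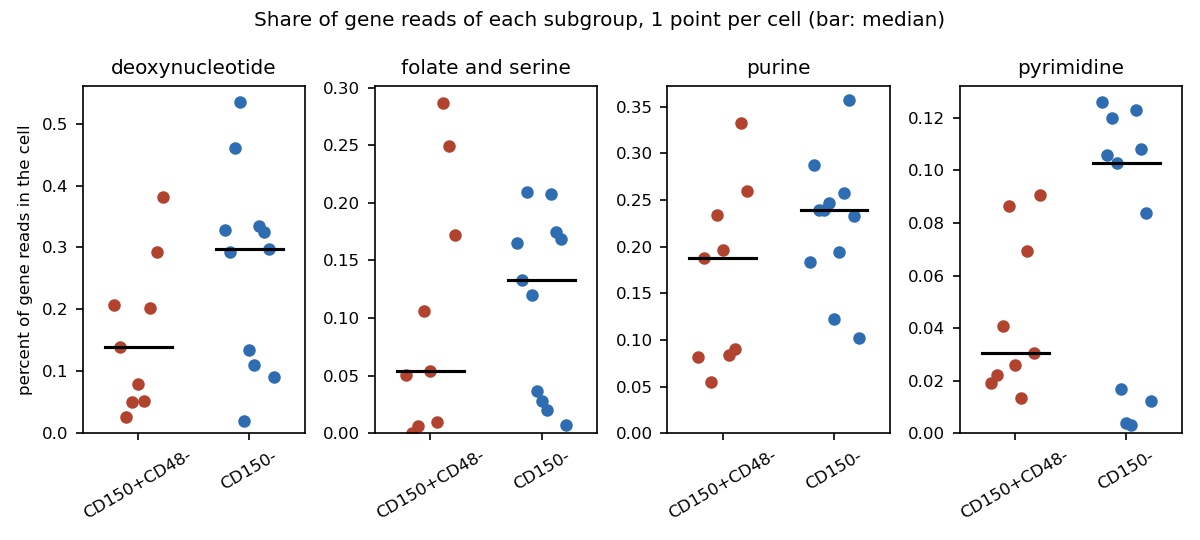
Share of gene reads (y axis, percent) taken by each of the 4 subgroups of enzyme genes, with 1 point per cell (red CD150+CD48-, blue CD150-), a bar at the median of each group and a scale for each panel. The ratio of the medians is largest for pyrimidine genes, 0.0305% in CD150+CD48- and 0.103% in CD150- cells, and smallest for purine genes, 0.188% and 0.239%.

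The 11 genes of purine synthesis took a median of 0.188% of gene reads in CD150+CD48- cells (range 0.0548 to 0.333) and 0.239% in CD150- cells (range 0.102 to 0.357), a smaller ratio of medians than in the other 3 subgroups. D3, D9, D11 and D12 had 0.102% to 0.247%, overlapping the 0.184% to 0.357% of the 7 erythroid-rich cells. Paics, a bifunctional enzyme of the middle of the pathway, made up much of this. It had 836 CPM in CD150+CD48- cells, in 8 of 9, and 973 in CD150- cells, in 11 of 11 (log2 fold -0.22), but 1.52 CPM in A3 and none in B12. Ppat, which commits the pathway, lies head to head with Paics, and 272 exon bases of the pair overlap on opposite strands, 6.15% of Ppat and 8.67% of Paics. It had 89.4 against 176 CPM, a log2 fold of -0.97 (-1.28 without B9) and no read in B4, the CD150+CD48- cell with the most Paics, 1944 CPM.

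Gart and Gmps were the lowest purine genes in CD150+CD48- cells relative to CD150- cells. Gart (chromosome 16, 91621186 to 91646952), a trifunctional enzyme of early steps, had 0, 18.2 and 118 CPM in the lowest, median and highest CD150+CD48- cell and 0, 71.2 and 409 in CD150- cells, where C6 was highest. It was 3.51-fold lower (95% CI 2.96 to 4.19, log2 fold -1.78), at -2.49 without B3, and 19.7% of its exon bases overlap the antisense gene Gm15964. Gmps (chromosome 3, 63976106 to 64022579), which makes GMP, had 0, 12.1 and 123 CPM in CD150+CD48- cells and 0, 155 and 411 in CD150- cells. Its highest CD150- cell was D9, which is not erythroid-rich, and it was 3.07-fold lower (95% CI 2.70 to 3.52, log2 fold -1.60), at -1.54 with the erythroid-rich cells left out. Adsl, which acts in both IMP synthesis and its conversion to AMP, was read in all 9 CD150+CD48- cells, at 6.06 to 350.0 CPM, with a log2 fold of -0.76 and of -1.06 without B9. Pfas, an early amidotransferase, was read in 2 of 9 and 7 of 11 cells at 10.8 and 20.4 CPM, with a log2 fold of -0.86 and of -2.16 without B11.

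Prps2 and Atic were higher in CD150+CD48- cells. Prps2 (chromosome X, 167346322 to 167382749), which makes the activated ribose used for both nucleotide kinds, had 0, 30.3 and 615 CPM in the lowest, median and highest CD150+CD48- cell and 0, 28.8 and 89.4 in CD150- cells. B12 at 615, B4 at 277 and B11 at 168 CPM lay above every CD150- cell, and the other 6 had 53.0 or less. It was 3.92-fold higher (95% CI 3.38 to 4.55, log2 fold 1.94), at 1.01 without B12 and -2.03 between the A and C cells. Its isoenzyme Prps1 was 1.57-fold lower (95% CI 1.45 to 1.70, log2 fold -0.65), at -1.67 without B4, and per kilobase of exon was above Prps2 in 6 of 9 CD150+CD48- and 9 of 11 CD150- cells. B12 had 615 CPM of Prps2 and no read of Prps1. Atic (chromosome 1, 71557150 to 71579631), which closes the ring to IMP, had 0, 10.6 and 315 CPM in CD150+CD48- cells, and 1.52, 12.1 and 87.9 in CD150- cells. It was read in all 11 of the latter. Its summed level was 2.36-fold higher (95% CI 1.97 to 2.83, log2 fold 1.21) through B4 at 315 and B9 at 182 CPM. The log2 fold was 0.17 without B4, -0.51 when cells were averaged as logs, and -0.33 between the A and C cells.

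The 2 IMP dehydrogenases open the branch to GMP, and both had a read in 5 of 9 CD150+CD48- and 8 of 11 CD150- cells. Impdh1 had 373 CPM in D3, 168 in A8, 119.7 in A3 and 117 in D11, and 0 to 83.3 in the 7 erythroid-rich cells. Its log2 fold was -1.01, -0.26 without D3, -1.86 without A8, 1.82 between the A and C cells and 0.51 with D3, D9, D11 and D12 left out. Impdh2 was read in all 9 CD150+CD48- and 10 of 11 CD150- cells, at 161 and 213 CPM (log2 fold -0.40). Per kilobase of exon it was above Impdh1 in 8 of 9 and 7 of 11 cells, although 73.9% of its 50-base stretches occur in the pseudogene Impdh2-ps and it could be undercounted.

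Pyrimidine synthesis had the largest ratio of median shares, 0.0305% of gene reads in CD150+CD48- cells (range 0.0135 to 0.0905) against 0.103% in CD150- cells (range 0.00333 to 0.126). In the 7 erythroid-rich cells the share was 0.0838% to 0.126%, and in D3, D12, D9 and D11 it was 0.00333%, 0.00409%, 0.0123% and 0.0168%, at the low end of the CD150+CD48- range or below it. Of the 6 genes 1 was lower (Cad) and 1 higher (Nme2) by the log2 fold of 1, beside 27.3% and 21.8% of all genes.

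Cad (chromosome 5, 31054780 to 31078479), a fusion of the enzymes of the first pyrimidine steps, had 0, 9.09 and 142 CPM in the lowest, median and highest CD150+CD48- cell and 0, 147 and 553 in CD150- cells. The 7 erythroid-rich cells had 50 to 553 CPM and D3, D9, D11 and D12 had 0 to 16.7. It was 4.17-fold lower (95% CI 3.62 to 4.83, log2 fold -2.03) and at -2.61 without A11, but at 2.56 with the erythroid-rich cells left out. Dhodh (chromosome 8, 109591343 to 109608673), the mitochondrial enzyme of the pathway, was read in 3 of 9 CD150+CD48- cells, with a median of 0 and a highest value of 81.8 CPM in B11, and in 6 of 11 CD150- cells, with a median of 1.52 and a highest value of 62.1. Its levels of 17.3 and 16.1 CPM differed by 1.08-fold (95% CI 0.818 to 1.41), within counting error, with log2 folds of 0.10 with all cells and -0.74 without B11. Umps, which completes UMP, was read in all 11 CD150- cells at 9.09 to 239 CPM but in 4 of 9 CD150+CD48- cells, with 59.7% of their reads in B3 at 583 CPM. Its log2 fold was -0.28 with all cells and -1.41 without B3. Ctps, which makes CTP, had 379 CPM in A8 and 189 in B9, a log2 fold of -0.41, and -1.36 without A8.

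Nme1 and Nme2, nucleoside diphosphate kinases that serve all nucleotides, are neighbours on chromosome 11. Nme1 (93956979 to 93968521) had 9.09, 189 and 374 CPM in the lowest, median and highest CD150+CD48- cell and 0, 329 and 733 in CD150- cells. In C6, C9, C10, C12 and D4 it had 485 to 733 CPM, above every CD150+CD48- cell, but D8 had 60.6. It was 1.84-fold lower (95% CI 1.71 to 1.98, log2 fold -0.87), and -1.11 without A8. Nme2 (93949814 to 93956259) had 1.52, 16.7 and 112 CPM in CD150+CD48- cells, in 9 of 9, and 0, 6.06 and 43.9 in CD150- cells, in 8 of 11. It was 2.71-fold higher (95% CI 2.09 to 3.53, log2 fold 1.37), at 0.86 without B9, -0.39 between the A and C cells and -0.0031 with ERCC scaling. The readthrough gene Gm20390 shares 48.9% of the exon bases of Nme2 and 12.5% of those of Nme1 on the same strand, so reads there are ambiguous and both genes, Nme2 above all, could be undercounted.

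Related genes outside the 35 were taken from lists. Their counts stand beside 27.3% lower and 21.8% higher by a log2 fold of 1 among all genes past the filter. Of 16 salvage and catabolism genes past the filter, 1 was lower and 2 were higher. Ampd3, the AMP deaminase of red cells, was 27.5-fold lower (3.03 against 83.5 CPM, 95% CI 17.3 to 46.8), with log2 folds of -4.39 over all cells and -5.18 without A10. Gda, guanine deaminase, was 22.2-fold higher (141 against 6.34 CPM, 95% CI 16.5 to 30.6). Reads came from 6 of 9 and 3 of 11 cells, and the log2 fold of 4.27 was 3.21 without B4 and 5.19 without C10. Tk2, the mitochondrial thymidine kinase, was 30.9-fold higher (95% CI 18.5 to 55.7) although fewer CD150+CD48- cells (2 of 9) than CD150- cells (5 of 11) had a read, with a log2 fold of 4.40 that was 2.63 without A10. Among 14 nucleotide kinases and pool-cleaning enzymes 3 were lower and 1 higher, and among 11 other de novo genes 3 were lower and 1 higher. The higher gene of the other de novo list was Gmpr, GMP reductase, which returns GMP to IMP. It had 114 CPM in 6 of 9 CD150+CD48- cells and no read in the 11 CD150- cells, at least 275-fold higher against a floor of 3 reads over the group, with a log2 fold of 6.12 without B3. Slc29a1, a nucleoside transporter, was 4.44-fold lower (95% CI 3.95 to 5.00), with reads from 3 of 9 and 10 of 11 cells and log2 folds of -2.13 with all cells and -2.97 without B9.

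Of 17 genes of the folate cycle and methionine metabolism past the filter, 6 were lower and 1 higher (all genes: 27.3% and 21.8%). Fpgs, which holds folate in the cell, was 27.6-fold lower (3.03 against 83.7 CPM, 95% CI 17.3 to 46.9), in 3 of 9 and 8 of 11 cells. Its log2 fold was -4.39 and, without B9, -5.07. Mtfmt, which uses formyl-folate to add a formyl group to the charged mitochondrial initiator tRNA, was at 32.5 CPM in CD150- cells. It had no thinned read in any CD150+CD48- cell, at least 64.4-fold lower, but with all reads used 2 of these cells had a read. Aldh1l1, which burns off formyl-folate, was 3.96-fold higher (95% CI 3.37 to 4.67). Reads came from 3 of 9 and 1 of 11 cells, with log2 folds of 1.95 over all cells, 6.77 without D3 and 1.13 without A10.

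Among 19 regulators of these pathways past the filter, 7 were lower and 3 higher (all genes: 27.3% and 21.8%). Myc, an activator of nucleotide enzyme genes, was 1.90-fold higher in CD150+CD48- cells (195 against 103 CPM, 95% CI 1.73 to 2.09), with log2 folds of 0.92 with all cells, -0.11 without A3 and 1.38 without C6. Mycn, its relative, was 2.13-fold higher (95% CI 1.77 to 2.57), with reads from 7 of 9 and 3 of 11 cells. Its log2 fold of 1.06 was 2.87 without D11, which held 76.6% of the CD150- reads, and 0.62 without B11. Atf4, an activator of the serine enzyme genes, was 2.58-fold lower (108 against 279 CPM, 95% CI 2.36 to 2.82), and was read in 6 of 9 and 11 of 11 cells. Its log2 fold of -1.36 was -2.14 without B12. E2f1, an activator of S phase genes, was 2.30-fold lower (95% CI 1.89 to 2.82), with log2 folds of -1.17 with all cells, -2.04 without A8 and -0.76 without C6. E2f2 was at 36.0 CPM in CD150- cells and unread in all 9 CD150+CD48- cells, at least 71.2-fold lower. D5 held 64.8% of its reads, and its log2 fold of -5.21, which rests on the 1 CPM added, was -3.90 without that cell. E2f4 was 10.2-fold lower (95% CI 8.97 to 11.6), with log2 folds of -3.32 over all cells and -4.26 without A8. E2f3, of the same family, was 2.71-fold higher (95% CI 2.35 to 3.15), with log2 folds of 1.42 over all cells, 1.18 without B11 and 2.06 without D8. Mxd1, which competes with MYC for its partner MAX, was 7.79-fold higher (95% CI 4.57 to 14.1), at 17.2 against 2.20 CPM, with log2 folds of 2.50 over all cells and 1.90 without A3. In the S phase list 14 of 26 genes were lower and 1 higher by a log2 fold of 1. In the G2/M list 21 of 22 were lower and none higher. Both stand beside 27.3% lower and 21.8% higher among all genes.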

How the data were processed

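Reads per gene were deposited by the authors as raw counts, with no normalization, for 20 single cells. Per the submitters' processing notes, HTSeq, R 3.0.2 and GRCm38 were used (aligner and annotation release not given in the sources used here). The files held 38561 genes and 5 summary rows each, and a series table added 51 ERCC rows. Library sizes hold neither kind of row. Of all reads, 7.96% to 44.3% were counted in genes and 9.41% to 56.4% aligned to more than 1 place, which can lower the counts of genes that have near-identical copies. Molecular identifiers were not used.

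Reads were drawn without replacement to 660007 gene reads a cell (numpy 2.4.6), and a group's reads were summed and given as CPM. Genes needed 10 thinned reads and reads in 3 cells. Intervals (95%, scipy 1.17.1) are exact: Poisson for levels and conditional binomial for folds. Where a group had no read, the floor was 3 reads over the group. Cells are not replicates, so no test was made. The steps were tested on simulated data. Locations and overlaps are from GENCODE M21 (GRCm38), promoters from RefSeq (GRCm38.p6). A symbol was found for 36639 of the gene identifiers. In each subgroup the 2 genes with the highest and the 2 with the lowest log2 fold are given in full. Genes from other lists are those with the 2 highest or lowest log2 folds, besides Myc, Mycn, Atf4 and E2f1. Some listed genes are not reported here. The enzyme genes, lists and tests were chosen with earlier results of these data known. Alternatives were other scalings, pseudocounts, filters, averages and subsets of cells.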

Additional observations from a re-analysis of the deposited data

Results flagged for a closer look

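In the 9 CD150+CD48- cells, 21 measures were examined for a single cell far from the others (Dixon's ratio, gap to the next cell over the range, above 0.493). Chance flags about 1 in 20 where values are normally distributed, which levels with many cells at 0 are not. The genes examined were also those with the highest or lowest log2 folds, which a single high cell can produce. The number flagged can therefore not be set against chance. The comparison picked out 7 genes. A8 was the outlying cell for Rrm2 (7.58 CPM, next 1.52), Mthfd1 (377 CPM, next 90.9) and Mthfd2 (71.2 CPM, next 0). B4 was the outlying cell for Dck (465 CPM, next 27.3) and Psat1 (1519.7 CPM, next 550.0). B12 was outlying for Prps2 (615 CPM, next 277) and B3 for Gart (118 CPM, next 37.9).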

How the results depend on the processing

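No paired analysis was possible because the labels name nothing that links a cell to a cell of the other group. ERCC scaling had no value for shares of gene reads. The 10 lower and 8 higher genes (all genes: 27.3% and 21.8%) became 20 and 2 with the mean on the log scale (all genes: 36.4% and 14.2%). With ERCC scaling they became 24 and 0 (all genes: 47.9% and 15.2%, median -0.92). Between A and C cells they became 24 and 2 (all genes: 36.5% and 27.4%). With the 7 erythroid-rich cells left out they became 4 and 22 (all genes: 22.8% and 33.4%). That alternative was chosen after seeing the data, as was leaving out D3, D9, D11 and D12. Between B and D cells 6 were lower (all genes: 30.7%), and with a pseudocount of 10 CPM 5 were higher (all genes: 16.2%). The median log2 fold of -0.41 became -1.73, -1.68, -1.85 and 1.48 under the mean on the log scale, ERCC scaling, A and C cells and without the erythroid-rich cells. The cause was not tested. With each cell left out, 9 to 14 genes were lower and 5 to 9 higher (14 lower without B9, 5 higher without B4 or B9). Among all genes 26.9% to 30.4% were then lower and 21.3% to 23.8% higher. The median was -0.67 to -0.34, and the median share was 0.792% to 0.812% in CD150- and 0.357% to 0.417% in CD150+CD48- cells.

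Of the 18 genes past a log2 fold of 1 in size, 12 changed sign under at least 1 setting, and none when a single cell was left out. Sign changes were not counted over all genes, so the 12 have no background and are not a trait of these enzymes. The sign turned between A and C cells for Atic (-0.33), Impdh1 (1.82), Nme2 (-0.39), Phgdh (-1.85), Prps2 (-2.03), Rrm2b (-0.25) and Shmt1 (-3.29), with the mean on the log scale for Atic (-0.51), and with ERCC scaling for Nme2 (-0.0031) and Shmt1 (-0.47). It turned without the erythroid-rich cells for Cad (2.56), Dut (1.19), Mthfd1 (0.05), Mthfd2 (2.34) and Tk1 (1.48), and without D3, D9, D11 and D12 for Impdh1 (0.51). At this depth a gene with no read in a cell may still be transcribed there.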
